A study of Homo sapiens with 6 samples.

Results

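RNA-seq counts for 32 genes of peroxisomal metabolism, import and membrane assembly were examined in 6 cultures of PC3 cells, a prostate cancer line established from a bone metastasis. All 32 genes were found among the 24462 gene symbols of the series, and all 32 were among the 16314 genes tested. The genes were selected by name and function, in a list drawn up around ACOX2, and ACOX2 itself was chosen by its low counts after CITED2 siRNA in this same comparison. Its values are therefore a description and support nothing. For the other members the counts and tests come from that same comparison and are given as descriptions too, without p-values. The question of the comparison was which genes differed after siRNA against CITED2, a transcriptional coregulator. The Control group held 3 cultures that received a non-targeting siRNA. The other group held 3 cultures that received si-CITED2. All 6 cultures were PC3 cells, and the siRNA was transient, at 80 nM for 72 h, so the cells kept the gene itself. Total counts ranged from 19508925 to 28936374 per library, and the 32 genes together took 0.13 to 0.134% of them.

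Peroxisomes are small organelles that shorten very long-chain and branched fatty acids by beta-oxidation, carry out the first steps of ether lipid synthesis and break down hydrogen peroxide. Their enzymes are made in the cytosol and brought in by peroxins, the proteins encoded by the PEX genes. Peroxisomal beta-oxidation differs from the mitochondrial pathway in its first step, which is catalysed by acyl-CoA oxidases that pass electrons to oxygen and give off hydrogen peroxide. ACOX2 is the branched-chain oxidase of this family, known for shortening the side chain of bile acid intermediates in liver, and AMACR, the racemase that prepares branched substrates for it, is a widely used marker of prostate cancer.

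The mRNA of the targeted gene went against the labels. CITED2 had 859, 892 and 773 normalised counts in the Control libraries (counts scaled to a common library size) and 1084, 921 and 984 in the libraries labelled si-CITED2, a log2 fold change of 0.24 (SE 0.07, adjusted p = 0.0363, edgeR quasi-likelihood test, Benjamini-Hochberg adjusted). The adjusted p passed 0.05 in only 2 of the 6 fits that left out 1 library and was lost without Control 1, Control 3, si-CITED2 1 or si-CITED2 3, and over the 6 fits the change ranged from 0.17 to 0.29. The study assessed the knockdown on protein, which the counts do not show. Every direction below is therefore that of the libraries labelled si-CITED2 against Control. As for cell identity, 7 or 8 of 10 epithelial and prostate markers had counts in each library, with a summed level of 1829 to 1917 CPM (reads scaled to a common total) in Control and 1951 to 2135 in the other group, while KLK2 and FOLH1 had 0 counts. Of 10 blood markers, CD68 made up nearly all of a summed level of 138 to 146 CPM in Control and 126 to 150.2 in the other group. The haemoglobin gene HBB was at 0 in every Control library and at 20, 32 and 20 counts in the libraries labelled si-CITED2, and HBA1 was at 1, 3 and 1 against 44, 55 and 37. Fibroblast and endothelial markers summed to 6.42 to 6.67 CPM in Control and 7.33 to 8.25 in the other group, mostly COL1A1. In that sum PDGFRA had 1, 1 and 2 counts in Control and 11, 8 and 7 in the other group. CDH5 had 7, 9 and 4 against 2, 1 and 0. Hepatocyte markers summed to 38.8 to 40.4 CPM and 36.9 to 38.0, nearly all of it SERPINA1 at 718 to 1106 counts per library. ALB was at 0 in 5 of the 6 libraries. The part of these genes in the results below was not tested.

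Promoter windows from 250 bases before to 50 bases after the annotated start, from RefSeq on GRCh38.p14, were matched for 25 of the 32 genes and gave 33 windows. ACOX2, EHHADH, ACAA1, DECR2, CRAT, PEX14 and PEX2 had no entry. The windows of AGPS, which passed the test in the comparison below, and of HSD17B4, which had the highest level per length of the beta-oxidation enzymes and overlapped between the groups, are given 5′ to 3′. Capitals mark matches to the GC box and to the nuclear receptor half-site, on either strand. The AGPS window is chr2:177392523-177392822 on the plus strand, with the half-site at bases 216 to 221 and the GC box at bases 244 to 249. The HSD17B4 window is chr5:119452247-119452546 on the plus strand, with a GC box at bases 240 to 245.
AGPS: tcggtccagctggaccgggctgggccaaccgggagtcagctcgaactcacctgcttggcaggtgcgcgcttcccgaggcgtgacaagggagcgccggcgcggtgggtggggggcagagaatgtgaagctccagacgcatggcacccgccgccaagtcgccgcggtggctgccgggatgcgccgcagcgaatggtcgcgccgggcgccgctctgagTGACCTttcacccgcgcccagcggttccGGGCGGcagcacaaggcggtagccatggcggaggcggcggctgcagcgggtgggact
HSD17B4: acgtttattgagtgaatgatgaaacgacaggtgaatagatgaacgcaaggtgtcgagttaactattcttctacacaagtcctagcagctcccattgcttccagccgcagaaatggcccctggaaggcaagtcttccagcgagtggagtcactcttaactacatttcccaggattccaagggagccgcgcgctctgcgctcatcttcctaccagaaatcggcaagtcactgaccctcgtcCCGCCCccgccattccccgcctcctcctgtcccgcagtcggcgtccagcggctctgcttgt

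The windows of the peroxisome genes were rich in G and C, with a median of 64.3% against 58.7% over all 35116 windows of the same length. The GC box, GGGCGG on either strand, lay in 24 of the 33 windows (72.7%) and in 45.0% of all windows. The half-site bound by PPAR and RXR receptors, AGGTCA on either strand, lay in 2 windows (6.06%), including that of AGPS, and in 13.8% of all. The TATA motif TATAAA was found in none of the 33 windows and in 11.5% of all, on either strand. The CCAAT motif lay in 33.3% against 34.6%, the E-box CACGTG in 6.06% against 7.26%, and the cAMP response element half-site TGACG in 36.4% against 24.6%, each on either strand. A match describes the letters in the window and not a bound site. The 35116 windows were not limited to coding genes tested here, as the members were. Whether the members differ from other tested coding genes in these letters was not tested.

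Many of these genes also share their start region with another gene. In the GENCODE 29 annotation of GRCh38, 12 of the 32 genes (37.5%) had a protein-coding gene on the opposite strand whose 5′ end lay within 1000 bases, against 2234 of the 13546 coding genes tested (16.5%). Among these pairs are AGPS with NFE2L2, which encodes the antioxidant transcription factor NRF2, PEX14 with DFFA, PRDX5 with TRMT112 and EHHADH with MAP3K13.

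**Figure D1:**
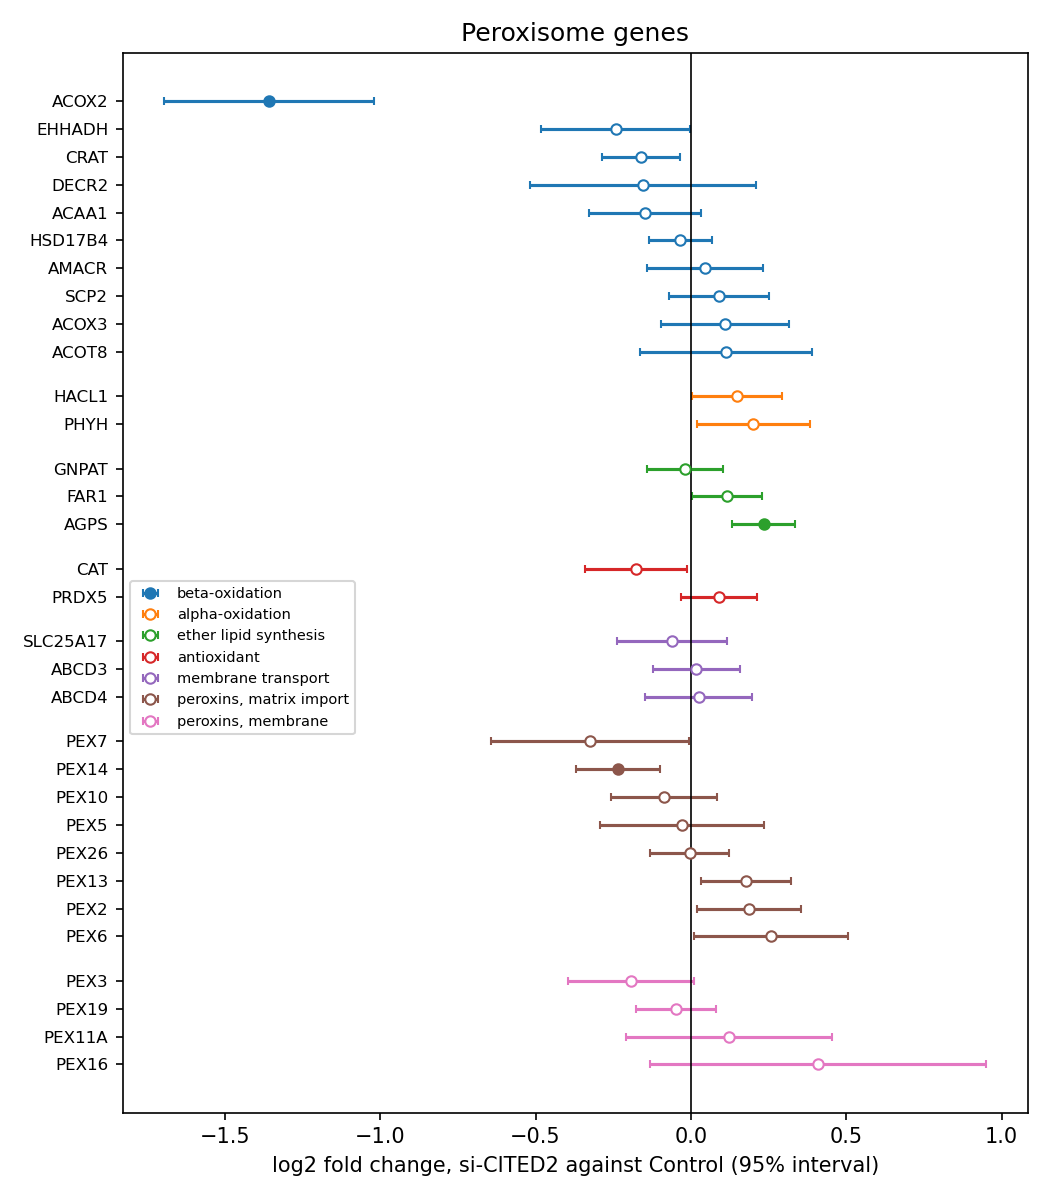
Log2 fold change of the libraries labelled si-CITED2 against Control for the 32 peroxisome genes, ordered by role. Points are the fitted values, bars are 95% intervals and filled points passed an adjusted p of 0.05. ACOX2 stands apart at -1.36, and the interval of 27 of the 32 genes lies within 0.5 of 0 on either side.

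Across the 32 genes, differences were small and went both ways. ACOX2 and PEX14 were lower and AGPS was higher in the libraries labelled si-CITED2 at an adjusted p under 0.05, which is 3 of 32 genes (9.38%) where 17.4% of all genes tested passed. By direction, 2 of 32 were lower (6.25%) where 8.09% of all genes were, and 1 of 32 was higher (3.12%) where 9.36% of all genes were. At an unadjusted p under 0.05 in the same edgeR test, 6 of 32 were lower (18.75%) and 7 higher (21.88%). Of all genes tested, 14.2% were lower and 14.8% higher at that threshold, so the members lay above the shares of all genes there and below them after adjustment. These counts include ACOX2, around which the list was built, and nothing is read from them. The median log2 fold change over the members was 0.01 and that over all genes tested was -0.0014. The fold change was below 0 for 16 genes and above 0 for 16. The median size of the change, whatever its sign, was 0.13 among the members and 0.14 among all genes. In 4 genes every library labelled si-CITED2 lay below every Control library (ACOX2, CRAT, PEX7 and PEX14), or 12.5% where 16.1% of all genes did so, and in 5 every one lay above (HACL1, AGPS, FAR1, PEX13 and PEX6), or 15.6% where 16.4% did so. In the other 23 the groups overlapped. The summed level of all 32 genes was 31032 ± 713 normalised counts (SD, n = 3) in Control and 31445 ± 199 in the other group, 1.33% higher. In bulk RNA, fewer cells with a transcript and less transcript per cell cannot be told apart.

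The precision of these counts bounds how far the other genes could have moved. The 95% interval of the log2 fold change lay within 0.5 of 0 for 27 genes and within 1 of 0 for 31, and 24 genes had a change under 0.2 in size. The genes whose interval passed 0.5 were ACOX2, DECR2, PEX7, PEX6 and PEX16. The median coefficient of variation within a group was 6.47% over the members. The 29 genes that did not pass the test ran from -0.32 (PEX7) to 0.41 (PEX16).

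Per kilobase of the longest coding transcript in GENCODE 29, the levels of the 32 genes in Control spread from 19.7 normalised counts per kilobase for PEX16, a peroxin of the membrane, to 4102 for PRDX5, an antioxidant enzyme also found in mitochondria and cytosol. HSD17B4, the second-step enzyme of branched-chain beta-oxidation, stood at 1632 per kilobase, GNPAT, the first enzyme of ether lipid synthesis, at 684 and PEX14 at 457. ACOX2 was among the lower genes, at 74.3 per kilobase in Control and 29.04 in the other group. PEX26 is placed low on this scale because its longest coding transcript is annotated at 18445 bases.

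**Figure D2:**
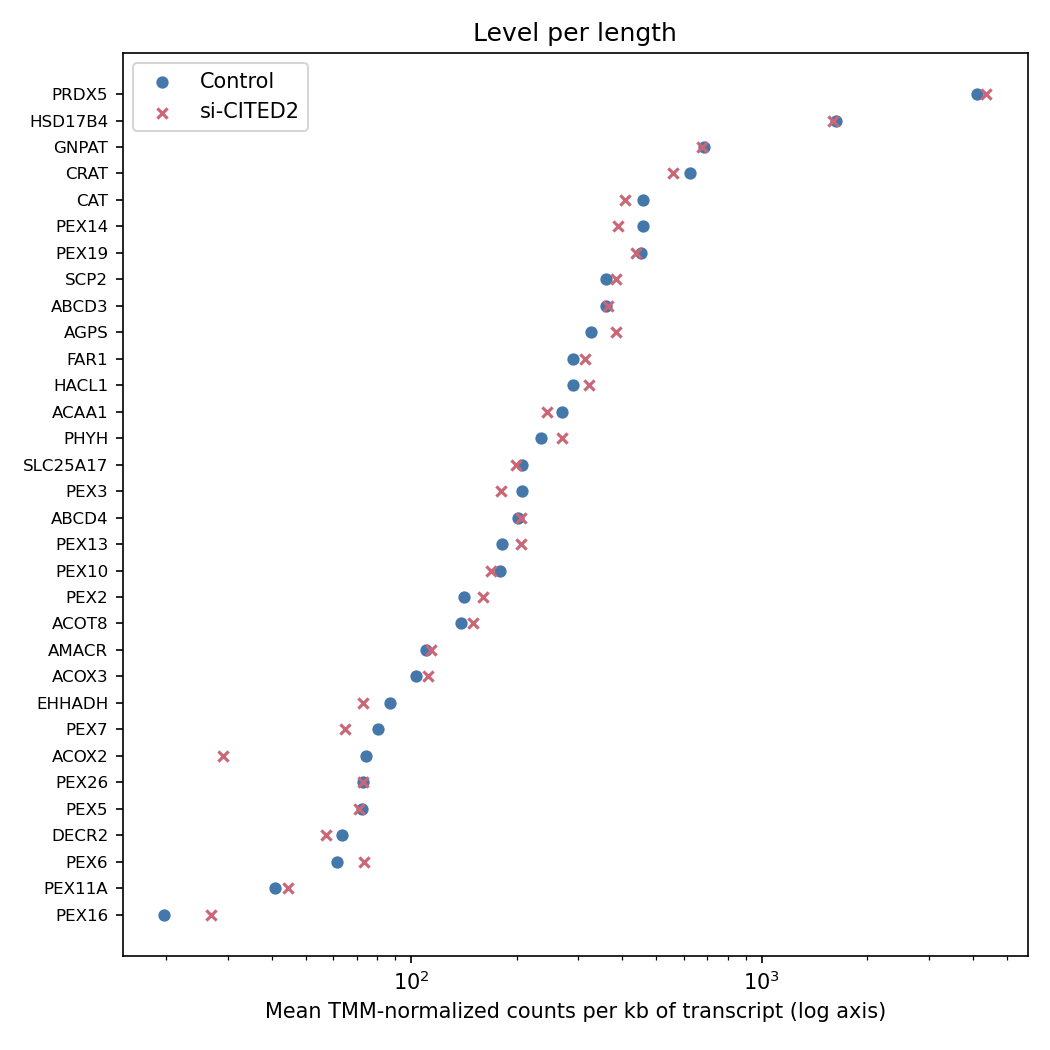
Normalised counts per kilobase of the longest coding transcript for each of the 32 peroxisome genes on a log axis, by group. PRDX5 is highest at 4102 and PEX16 lowest at 19.7 in Control, and for most genes the groups lie close together.

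ACOX2 had the lowest fold change of the 32 genes. Its normalised counts were 217, 162 and 162 in the Control libraries and 66.8, 67.8 and 76.7 in the libraries labelled si-CITED2. All 3 of the latter lay below all 3 Control libraries, of which Control 1 was the highest. The mean was 180 ± 31.6 (SD, n = 3) in Control and 70.4 ± 5.44 in the other group, a log2 fold change of -1.36 with a 95% interval from -1.70 to -1.02. Over the 13 alternative fits it ranged from -1.44 to -1.20. These values rest on 244, 201 and 138 reads in Control and 55, 71 and 70 in the other group. The gene is annotated at chr3:58505136-58537319 on the minus strand of GRCh38 (ENSG00000168306.12), and no exon of another annotated gene overlaps its exons.

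ACOX3, a further branched-chain oxidase, had 289, 308 and 291 normalised counts in Control and 312, 301 and 347 in the libraries labelled si-CITED2. The groups overlapped, with si-CITED2 3 the highest, and the log2 fold change was 0.11 with a 95% interval from -0.10 to 0.32. In Control, ACOX3 stood at 104 normalised counts per kilobase and ACOX2 at 74.3. The difference between the fold changes of these paralogs was not tested, because ACOX2 was chosen for its own.

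**Figure D3:**
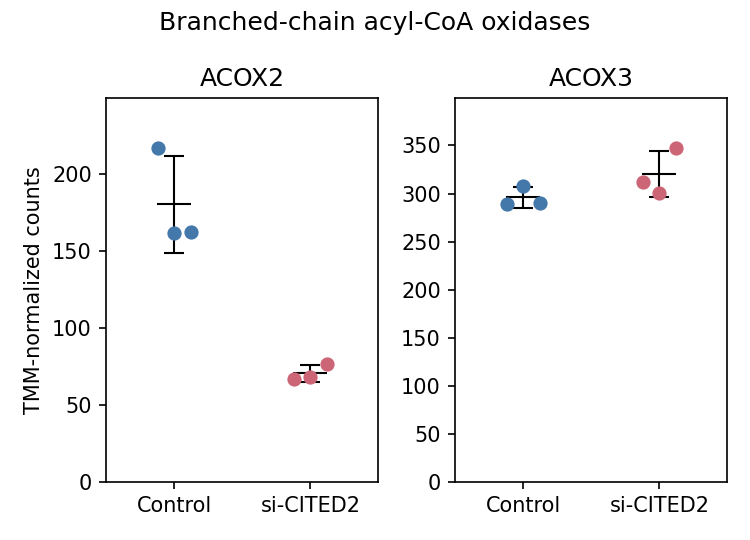
Normalised counts of ACOX2 and ACOX3 in each of the 6 libraries (points), with the mean and SD of each group (bars). The libraries labelled si-CITED2 lie below Control for ACOX2 and overlap with it for ACOX3.

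Of the other 9 genes of peroxisomal beta-oxidation, which include ACOX3, none passed the test, where 17.4% of all genes tested did. With so few genes, nothing is read from this count. Their fold changes ran from -0.24 (EHHADH) to 0.11 (ACOT8). HSD17B4 had 4703, 4601 and 4801 normalised counts in Control and 4405, 4696 and 4666 in the libraries labelled si-CITED2. The groups overlapped, and its log2 fold change of -0.03 had a 95% interval from -0.14 to 0.07. EHHADH, the bifunctional enzyme of the straight-chain branch, had 335, 326 and 342 against 234, 328 and 282, where only 1 library of the latter group overlapped with Control. Its interval ran from -0.48 to -0.0013. Its divergent neighbour MAP3K13, a kinase named after its values were seen, rose by 0.27 (adjusted p = 0.00889, edgeR quasi-likelihood test, Benjamini-Hochberg adjusted), a call lost without si-CITED2 2 (0.24). AMACR had 481, 485 and 407 against 481, 493 and 448, which overlap, and an interval from -0.14 to 0.23. Its exons share 2329 bases (49.9%) with a single exon of the readthrough gene C1QTNF3-AMACR, so reads could be split between the genes. That is the largest overlap with any one exon, and overlaps with further exons were not added.

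The thiolases and auxiliary enzymes of the pathway overlapped between groups, with CRAT as the exception. ACAA1, the thiolase of straight-chain substrates, had 501 ± 31.0 normalised counts (SD, n = 3) in Control and 454 ± 33.98 in the libraries labelled si-CITED2. Its exons share 413 bases (22.2%) with a single exon of DLEC1 on the opposite strand, the largest such overlap. Strand use in the counting is not stated. SCP2, the thiolase and sterol carrier of the branched-chain pathway, had 1415 ± 100.4 against 1504 ± 168. DECR2, a reductase for unsaturated chains, had 103 ± 11.5 against 92.4 ± 18.1, and ACOT8, a thioesterase, had 162 ± 18.1 against 175 ± 14.1. CRAT, the carnitine acetyltransferase that prepares shortened chains for export, had 1780, 1720 and 1683 against 1650.2, 1453 and 1536, all lower, with a log2 fold change of -0.16 (95% interval -0.29 to -0.04). It did not pass the test but did so without si-CITED2 1, at -0.21, and with library size scaling alone, at -0.18, and the change was smallest without si-CITED2 2, at -0.12. The summed level of the 10 genes was 9879 ± 159 in Control and 9507 ± 250.4 in the other group.

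Both enzymes of alpha-oxidation, which removes a single carbon from branched chains such as phytanic acid, had higher means in the libraries labelled si-CITED2, and neither passed the test. PHYH, the hydroxylase, had 429 ± 31.7 normalised counts (SD, n = 3) in Control and 493 ± 31.2 in the other group, with 1 pair of libraries overlapping. HACL1, the lyase, had 654, 685 and 625 against 749, 707 and 725, all higher, at a log2 fold change of 0.15. HACL1 shares 466 exonic bases (20.4%) with a single exon of BTD on the opposite strand, the largest such overlap.

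In ether lipid synthesis, the pathway to plasmalogens, AGPS was higher in every library labelled si-CITED2. AGPS makes the ether bond inside the peroxisome. It had 2532, 2545 and 2511 normalised counts in Control and 2963, 2981 and 2983 in the other group, 17.6% more on average. The SDs of 17.2 and 11.2 rest on 3 libraries each and may understate the spread. The log2 fold change was 0.23 (SE 0.05 from the fit) with a 95% interval from 0.13 to 0.33. It passed the test in the all-gene fit and in all 13 alternatives, where it ranged from 0.22 to 0.24. NFE2L2, whose 5′ end overlaps that of AGPS by 53 bases on the other strand and which was named after its values were seen, differed by -0.09 (SE 0.06, adjusted p = 0.2998, edgeR quasi-likelihood test, Benjamini-Hochberg adjusted). The largest overlap with a single exon of NFE2L2 covers 54 exonic bases, 0.7% of those of AGPS. AGPS is annotated at chr2:177392644-177559299 on the plus strand of GRCh38.

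The genes before and beside AGPS in that pathway differed less. FAR1, the reductase that supplies the fatty alcohol, had 1717, 1687 and 1647 normalised counts in Control and 1801, 1793 and 1884 in the libraries labelled si-CITED2, all higher, with a log2 fold change of 0.12 that did not pass the test. GNPAT had 1928, 1741 and 1757 against 1796, 1730.4 and 1834, which overlap, and a log2 fold change of -0.02. The 3 genes summed to 6021 ± 138 in Control and 6589 ± 102 in the other group, 9.42% higher, most of which was AGPS.

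**Figure D4:**
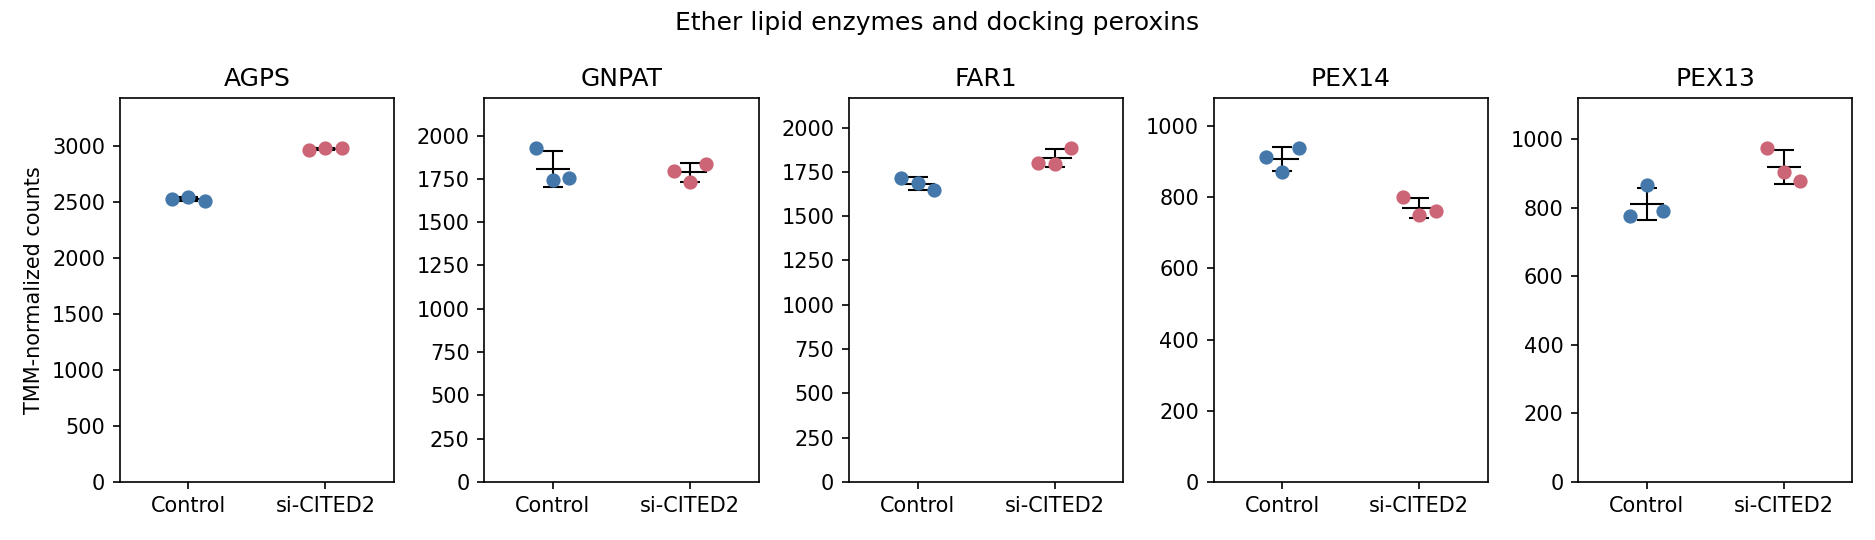
Normalised counts in each library (points) with group mean and SD (bars) for the ether lipid genes GNPAT, AGPS and FAR1 and the docking peroxins PEX13 and PEX14. AGPS is higher and PEX14 lower in all 3 libraries labelled si-CITED2.

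The import machinery held PEX14, the other member that passed the test. PEX14 and PEX13 form the docking complex that receives the cargo receptors at the membrane. PEX14 had 914, 870 and 938 normalised counts in Control and 801, 749 and 760.4 in the libraries labelled si-CITED2, all lower, with a log2 fold change of -0.24 (SE 0.06, 95% interval -0.37 to -0.10). The call was lost without Control 3 (-0.21), si-CITED2 2 (-0.22) or si-CITED2 3 (-0.22). PEX13 had 777, 865 and 791 against 974, 904 and 876, all higher, with a log2 fold change of 0.18 that did not pass. The 2 docking genes thus had fold changes of opposite sign. DFFA, which encodes a nuclease inhibitor of apoptosis and whose start region overlaps that of PEX14 on the other strand, fell by 0.18 (SE 0.05, adjusted p = 0.0282, edgeR quasi-likelihood test, Benjamini-Hochberg adjusted). It was named after its values were seen, and its call was lost without Control 2 (-0.17), si-CITED2 2 (-0.17) or si-CITED2 3 (-0.16). PEX14 is annotated at chr1:10472288-10630758 on the plus strand of GRCh38.

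The remaining 6 matrix import peroxins did not pass the test. Of the receptors, PEX5, which binds the common carboxy-terminal signal, had 236 ± 21.2 normalised counts (SD, n = 3) in Control and 231 ± 35.4 in the libraries labelled si-CITED2. PEX7, which binds the amino-terminal signal carried by AGPS and PHYH, had 126, 123 and 104 against 103, 90.8 and 89.8, all lower, with a log2 fold change of -0.32. Control 3 and si-CITED2 1 were nearly level. In the ubiquitin ligase complex, PEX2 had 611 ± 12.03 against 693 ± 71.6 and PEX10 had 515 ± 22.7 against 485 ± 33.6, with overlap in both. PEX2 passed the test only without si-CITED2 1, at a log2 fold change of 0.26, and the change was smallest without si-CITED2 3, at 0.13. Exons of PEX10 share 1481 bases (50.9%) with a single exon of RER1 on the opposite strand, the largest such overlap. In the export complex, the ATPase PEX6 had 188, 228 and 225 against 269.6, 229 and 267, all higher at 0.26, and its membrane anchor PEX26 had 1344 ± 64.4 against 1341 ± 59.2. The 8 import peroxins summed to 4755 in Control and 4788 in the other group, a difference of 0.7%.

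The 4 peroxins of the membrane, which build and divide the organelle, overlapped between the groups in every case. PEX16, an early factor of membrane assembly, had 40.0, 34.6 and 22.4 normalised counts in Control and 49.8, 38.2 and 43.8 in the libraries labelled si-CITED2. Its log2 fold change of 0.41 had a 95% interval from -0.13 to 0.95, and 19 to 45 reads per library gave no closer bound. PEX3, the membrane docking factor for PEX19, had 407 ± 5.6 (SD, n = 3) against 355 ± 41.6, where si-CITED2 2 was level with Control and the other two libraries were lower. PEX19, the chaperone for membrane proteins, had 1653 ± 71.1 against 1599 ± 104, and PEX11A, which elongates the membrane before division, had 112 ± 17.0 against 122 ± 15.6.

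Antioxidant enzymes and transporters also overlapped. CAT, the catalase that removes the hydrogen peroxide made by the oxidases, had 1063, 1161 and 937 normalised counts in Control and 1002, 884 and 921 in the libraries labelled si-CITED2, a log2 fold change of -0.18. It passed the test only without Control 3, at -0.25, and the change was smallest without Control 2, at -0.10. PRDX5 had 4023, 3521 and 3444 against 3949, 3814 and 3945, a log2 fold change of 0.09, and passed only without Control 1, at 0.16, while it was 0.06 without Control 2 and 0.05 without Control 3. TRMT112, a methyltransferase partner whose start lies 4 bases from that of PRDX5 on the other strand, fell by 0.16 (adjusted p = 0.0479, edgeR quasi-likelihood test, Benjamini-Hochberg adjusted), and this call was lost without Control 1 (-0.13), Control 2 (-0.15), si-CITED2 2 (-0.14) or si-CITED2 3 (-0.14). ABCD3, the carrier of branched-chain acyl-CoA and bile acid intermediates, had 1271 ± 95.5 (SD, n = 3) against 1287 ± 59.0. ABCD4, a lysosomal cobalamin transporter of the same family, had 604 ± 60.6 against 616 ± 20.4, and SLC25A17, a cofactor carrier, had 498 ± 40.0 against 479 ± 23.2. Outside the 32, ABCD2 had 1 to 5 reads per library and was not tested.

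Other peroxisomal genes were compared to place the 32. This list and those in the paragraphs below were also chosen with earlier results of these data known. The p-values of their genes are therefore descriptions. Of 44 further genes, 43 had a row, 36 were tested, and 3 passed as lower and 1 as higher (11.1% where 17.4% of all genes did), with a median log2 fold change of -0.01. The largest was MFF, which recruits the fission machinery to peroxisomes and mitochondria. It had 8824, 8356 and 8327 normalised counts in Control and 6269, 6201 and 6075 in the libraries labelled si-CITED2, without overlap. It fell by 0.46 on the log2 scale (SE 0.05, adjusted p = 2.2e-06, edgeR quasi-likelihood test, Benjamini-Hochberg adjusted). TYSND1, the protease that processes imported beta-oxidation enzymes, fell by 0.39 (adjusted p = 0.00189), from 717 ± 47.8 (SD, n = 3) to 550 ± 32.0 by the same edgeR test. SLC27A2, an acyl-CoA synthetase of very long chains, fell by 0.36 (adjusted p = 0.00678), from 520 ± 40.0 to 406 ± 17.8 by the same edgeR test. These 3 genes passed in each of the 13 alternatives. The liver enzymes AGXT, HAO1 and HAO2 were at 0 counts in all 6 libraries, which allows up to 0.154 CPM each in the least deep one.

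Mitochondrial beta-oxidation, the parallel pathway for shorter chains, was measured by 22 tested genes. ACADSB, the dehydrogenase of short branched chains, fell by 0.44 (SE 0.08, adjusted p = 0.000714, edgeR quasi-likelihood test, Benjamini-Hochberg adjusted), with 541, 589 and 572 normalised counts in Control and 430, 406 and 424 in the libraries labelled si-CITED2. ECI1, an isomerase for unsaturated chains, fell by 0.21 (adjusted p = 0.0294 by the same edgeR test), a call lost without Control 2 (-0.20), Control 3 (-0.20), si-CITED2 2 (-0.18) or si-CITED2 3 (-0.22). These 2 of 22 (9.09% where 17.4% of all genes passed) were the only calls, while 4 of 22 genes were lower (18.2%) and 0 higher at an unadjusted p under 0.05, where 14.2% of all genes were lower and 14.8% higher. DESeq2 also called none higher. The fold change was below 0 in 16 of the 22 (72.7%, where 50.3% of all genes were below 0), with a median of -0.07 against -0.0014 over all genes. Of 3 tested genes of bile acid side-chain and ring conversion, 1 passed as lower (33.3% where 8.09% of all genes did) and 0 as higher. It was HSD3B7, a steroid dehydrogenase, which fell by 0.38 (adjusted p = 0.0046 by the same edgeR test). Its normalised counts went from 575 ± 4.94 (SD, n = 3) to 443 ± 46.9. The gene that starts side-chain oxidation in mitochondria, CYP27A1, did not pass (0.12, adjusted p = 0.573 by the same edgeR test).

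The receptors that control peroxisomal genes in liver were included because PPAR alpha induces EHHADH there. Of 8 tested genes, 2 passed as higher in the libraries labelled si-CITED2 (25% where 9.36% of all genes did). As lower, 0 passed where 8.09% of all genes did. PPARD, the receptor PPAR delta, had 1778, 1844 and 1793 normalised counts in Control and 3826, 3616 and 3783 in the other group, a log2 fold change of 1.05 (SE 0.05, adjusted p = 1.82e-10, edgeR quasi-likelihood test, Benjamini-Hochberg adjusted). The groups did not overlap. PPARA differed by -0.07 (adjusted p = 0.705 by the same edgeR test) and PPARG by -0.17 (adjusted p = 0.144 by the same edgeR test), and neither passed.

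**Figure D5:**
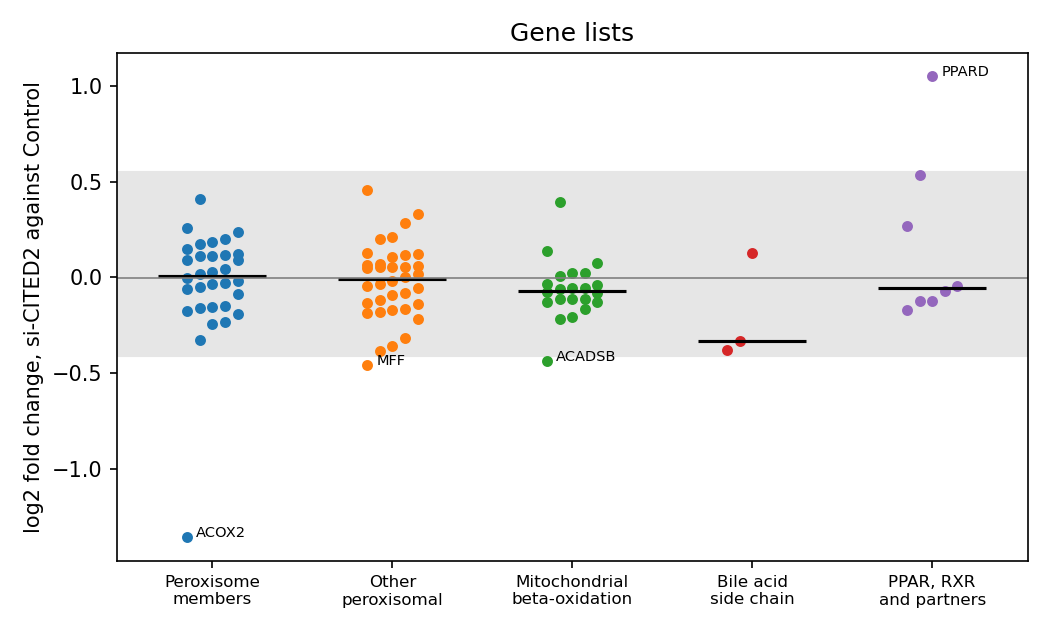
Log2 fold changes (libraries labelled si-CITED2 against Control) of each tested gene in the peroxisome list and the comparison lists (points), with list medians (black lines). The grey band spans the 5th to 95th percentile of all genes tested, -0.41 to 0.55, and of the genes plotted ACOX2 at -1.36, MFF at -0.46, ACADSB at -0.44 and PPARD at 1.05 lie outside it.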

How the data were processed

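Unnormalised read counts by gene symbol were deposited by the authors for each library. The submitters' processing notes name TopHat, edgeR and hg19 without versions. The counting program, annotation and use of strand are not given in the sources used here, so reads of overlapping genes may be shared. Each file held 25737 rows. Of repeated rows for 1 symbol the highest total was used, and the others held 0.0821% of reads. None of the 32 members had several rows. The members and all gene lists were chosen with earlier results of these data known.

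The fit used edgeR 4.0.16 under R 4.3.3 (filterByExpr, TMM normalisation, quasi-likelihood test over all 16314 genes kept, Benjamini-Hochberg adjustment, threshold 0.05). Each SE is the size of the log2 fold change over the square root of its F statistic. Normalised counts are counts divided by the TMM-scaled library size and set to a common size. DESeq2 1.42.0 served as an alternative among 13, which also covered scaling, filters and leaving out each library. The edgeR script was tested on simulated data. A count of 3, taken as the detection floor, equals 0.104 to 0.154 CPM, and floors and intervals on reads cover counting error only. The labels number the replicates, and the paper's legends speak of independent experiments. The p-values weigh each difference against the spread between 3 libraries per group, which edgeR estimates for each gene in part from all genes tested.

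Named genes follow a rule: all members are accounted for, with values per library for ACOX2, members that passed the test and the extremes of level per length, and from other lists up to 6 genes past the threshold with the largest changes, plus paralogs such as ABCD2. Some genes that this rule names are not reported here. Values per library were also given for further members. NFE2L2, DFFA, TRMT112 and MAP3K13 were chosen after their values were seen. Gene lengths, coordinates and overlaps come from GENCODE 29 on GRCh38 and promoters from RefSeq, a build other than the authors'. Each exon overlap is the largest with a single exon of the other gene, as a share of all annotated exonic bases of the member.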

Additional observations from a re-analysis of the deposited data

How the results depend on the processing

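No result changed direction past its threshold under the 13 alternatives. Leaving out 1 library gave 1 to 3 lower and 1 to 2 higher members (2 and 1 with all libraries), 3 to 5 lower and 1 to 2 higher genes among the other peroxisomal genes (3 and 1), with 5 lower without Control 1 and 2 higher without Control 2, and 1 to 3 lower genes of mitochondrial beta-oxidation (2), with 1 without Control 2, Control 3, si-CITED2 2 or si-CITED2 3 and 3 without si-CITED2 1. The replicate block gave 2 higher other peroxisomal genes and 1 lower mitochondrial gene, where the call of ECI1 was lost, and also lost those of DFFA and TRMT112, and no low-count filter gave 2 higher other peroxisomal genes. For CITED2, library size scaling without TMM gave 0.22 on the log2 scale, not past the threshold, and leaving out 1 library gave 0.17 to 0.29. The cause of these changes was not tested. Among all genes, the replicate block gave 1154 lower and 1405 higher, against 1319 and 1527. Same-numbered libraries deviated together with correlations of -0.04, 0.03 and -0.01, so the numbers were not taken as pairs. Depth limits the genes with few reads, such as PEX16, DECR2, PEX11A and PEX7. Their log2 fold changes had SEs of 0.255, 0.17, 0.16 and 0.15, where that of AGPS was 0.05.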
